A study of Homo sapiens with 6 samples.

Results

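Ferritin, iron uptake and iron sensing genes were followed in HT-1080 cells, a human fibrosarcoma line, after exposure to PhenDC3, a small molecule that binds G quadruplexes. The group was chosen by gene symbol, as 10 genes that store iron, bring it into the cell or the mitochondrion, deliver it, or sense it. Of these, 9 had a row under their symbol among the 22925 genes of the table, and all 9 were abundant enough to be tested. The tenth, NCOA4, the receptor that carries ferritin to the lysosome, had no row under its symbol. Its RNA level was not analysed here, and only its sequence was searched. Poly(A) RNA was sequenced from 6 libraries: 3 exposed to PhenDC3 at 20 μM, dissolved in DMSO at a final 1%, and 3 that received DMSO alone at the same 1%, each for 48 h. Both groups thus carried the same solvent, and the study used 1 cell line and 1 dose. The labels do not say whether replicates were separate cultures. A p-value here therefore reflects the spread of these libraries alone, and that spread may be technical.

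Cells keep spare iron inside ferritin, a hollow shell built of heavy chains, which oxidize iron as it enters, and light chains, which help it mineralize. Iron arrives on transferrin through the transferrin receptor and leaves the endosome through the transporter DMT1. The RNA-binding proteins IRP1 and IRP2 grip short hairpins called iron responsive elements (IREs) when iron is scarce. Bound at the 5′ end of ferritin mRNA they block its translation, and bound at the 3′ end of transferrin receptor mRNA they protect it from decay. Ferritin genes are also known targets of the antioxidant regulator NRF2.

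The IREs are shown because they divide the members by the arm of the pathway they serve. In GENCODE 29 coding transcripts the search took a C, then 5 bases, the loop CAGTGN and 5 bases that pair with the first 5, G-T pairs allowed. Only the transcript strand was searched, and 291 of 19669 coding genes (1.48%) held a match. Each line gives 30 bases, 5′ to 3′, with the 6 loop bases in capitals and T for U. The FTH1 site lies in the 5′ UTR, at chr11:61967574-61967603 (GRCh38, minus strand), and the FTL site in the 5′ UTR at chr19:48965334-48965363 (plus strand). The 4 TFRC sites that this search found lie in its 3′ UTR, between chr3:196050979-196051008 for site 1 and chr3:196050463-196050492 for site 4 (minus strand).
FTH1: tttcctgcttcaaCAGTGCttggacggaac
FTL: tctcttgcttcaaCAGTGTttggacggaac
TFRC site 1: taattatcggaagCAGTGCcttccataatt
TFRC site 2: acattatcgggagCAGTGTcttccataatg
TFRC site 3: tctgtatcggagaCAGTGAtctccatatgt
TFRC site 4: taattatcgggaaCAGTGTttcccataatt
The FTH1 and FTL elements had the same base at 27 of 30 positions. No match was found in the 18 coding transcripts of SLC11A2 that were searched, nor in those of the other 6 listed genes, which says only that these letters were not there. Of 7 other genes described as holding an IRE, the same search matched 4. A gene without a match may therefore still hold an IRE, and a matched gene may hold more than were found.

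Library depth was 12574952 to 14292987 reads in DMSO and 7371056 to 9386691 in PhenDC3, and mitochondrial RNA took 3.72 to 3.96% of reads in DMSO and 15.4 to 15.5% in PhenDC3. Values are given as normalized counts, that is, reads after division by a size factor set by the authors for each library. Log2 changes were taken after adding 1 and were tested with limma across 16482 genes, with p-values adjusted by Benjamini-Hochberg and called under 0.05. In that test 59.6% of all tested genes were called, 29.2% higher and 30.4% lower. Scaling to total reads in place of the authors' factors moved the median log2 change of all genes from -0.02 to -0.18 and the calls from 4806 higher and 5012 lower to 3579 and 6608. Of 7 mesenchymal markers 5 were tested and VIM, FN1 and CD44 were abundant, but COL1A2 and THY1 were too low to be tested. No row was matched for the erythroid or hepatocyte markers, and 4 of the 11 epithelial, endothelial and immune markers had one, EGFL7 being the most abundant.

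Of the 9 members, 3 were higher in PhenDC3 (FTH1, FTL and SLC25A28), 4 were lower (TFRC, SLC25A37, ACO1 and PCBP1) and 2 were not called (SLC11A2 and IREB2). With 7 of 9 called against 59.6% of all genes, the number of calls was not far from the background. The same 7 were called by edgeR (59.6% of all genes), DESeq2 (52.1%) and in the authors' deposited table (39.0%). The libraries of the groups did not overlap for 4 members on the higher side and 4 on the lower side, as for 31.5% and 32.6% of all genes. The 3 rises were larger than the 4 falls. Both storage genes rose by more than 4-fold and SLC25A28 rose 2.62-fold, whereas each of the 4 that fell stayed above 0.7 of its DMSO level. The median log2 change was 0.06 over the members and -0.02 over all tested genes.

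**Figure D1:**
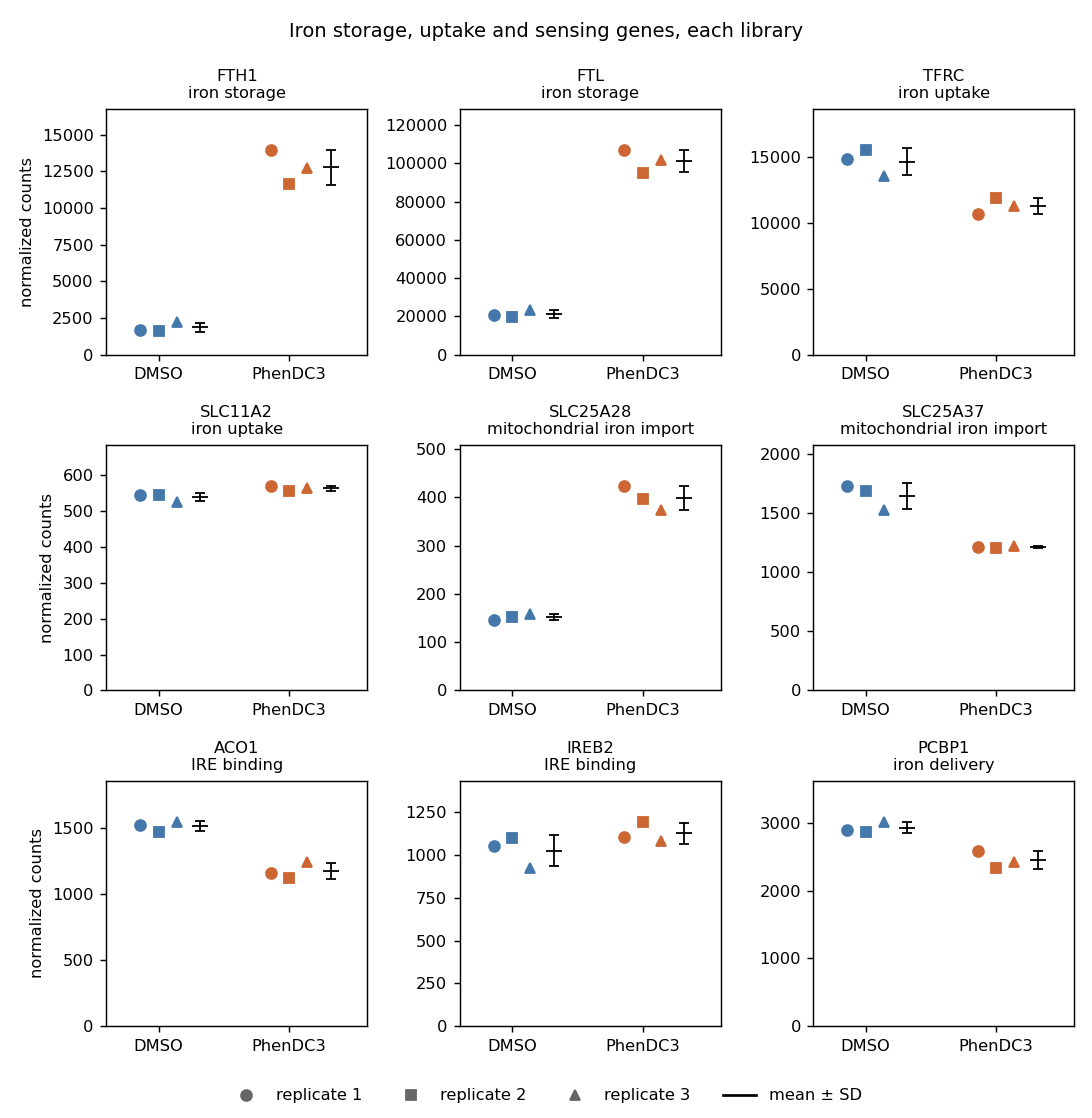
Normalized counts of the 9 members in each library, 3 with DMSO (blue) and 3 with PhenDC3 (orange), with mean ± SD beside the points and each axis starting at 0. FTH1, FTL and SLC25A28 sit far above their DMSO libraries, SLC11A2 shifts little, and IREB2 is the one member whose groups overlap.

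FTH1 (ENSG00000167996, chromosome 11) encodes the ferritin heavy chain. It stood at 1693, 1622 and 2233 normalized counts in DMSO replicates 1, 2 and 3 and at 13954, 11613 and 12740 in PhenDC3. The lowest treated library was thus far above the highest control, which was DMSO replicate 3. The rise was 6.90-fold, from 1849 ± 334 to 12769 ± 1171 (SD, n = 3; limma, log2 change 2.80, SE 0.09, adjusted p = 2.34e-15), which ranked 186 among the tested genes from the largest rise. FTH1 shares 1267 of its 2030 annotated exonic bases with BEST1, which runs in the opposite direction. Whether strand was used in counting, and how shared bases were handled, was not given in the sources used here. BEST1 itself had 3 reads over the DMSO libraries and 23 over the PhenDC3 libraries. The part of this overlap in the level of FTH1 was not tested.

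FTL (ENSG00000087086, chromosome 19) encodes the light chain and was the most abundant member. Its values were 20718, 19719.6 and 23528 normalized counts in DMSO and 107003, 95217 and 101685 in PhenDC3. Again no libraries overlapped, and DMSO replicate 3 was the highest control. FTL rose 4.75-fold (limma, log2 change 2.25, SE 0.07, adjusted p = 8.17e-16), and its share of all reads went from 0.217% ± 0.020 to 0.919% ± 0.048 (SD, n = 3). The heavy chain rose more than the light chain. The log2 ratio of FTH1 to FTL was -3.61, -3.60 and -3.40 in DMSO and -2.94, -3.04 and -3.00 in PhenDC3, a shift of 0.55, or 1.46-fold.

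Both ferritin genes have processed copies elsewhere in the genome, nearly the same in sequence, among which reads can be divided. Of the 13 FTH1 copies listed, 12 were tested and all 12 were higher, with log2 changes of 2.05 to 2.99. The 2 tested copies of FTL, of 4 in the table, rose by 2.27 and 2.32. Of the FTH1 copies, 3 averaged under 5 in DMSO and passed the filter on low values only through the treated libraries, so the count of copies that rose lends no weight of its own. Copies held 20.7% ± 2.05 of the summed FTH1 signal in DMSO and 19.4% ± 0.553 in PhenDC3, and 7.34% ± 0.450 and 7.60% ± 0.242 of the FTL signal (SD, n = 3). The division between gene and copies was thus alike in both groups, within the spread. With the copies added, FTH1 went from 2328 ± 373 to 15839 ± 1344 normalized counts, 6.80-fold (limma, log2 change 2.77, SE 0.09, adjusted p = 8.51e-16), and FTL 4.76-fold.

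**Figure D2:**
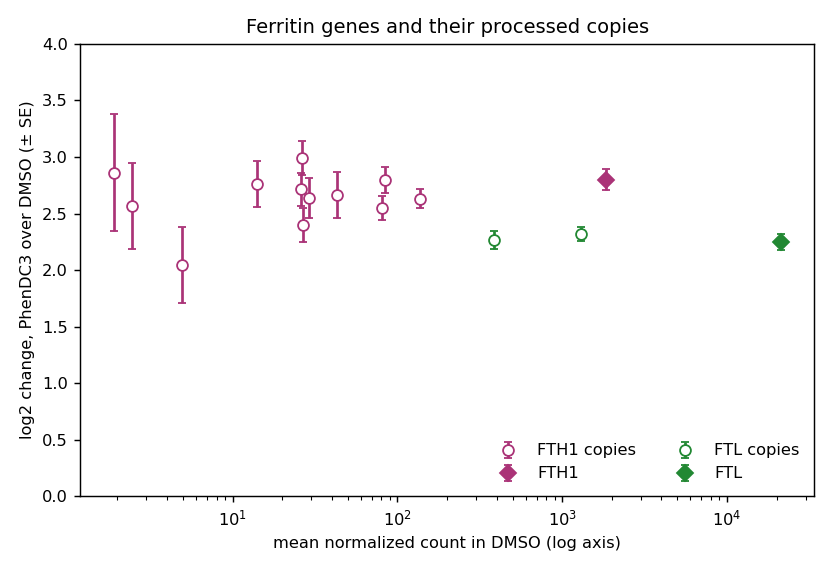
Log2 change (± SE, limma) against mean normalized count in DMSO (log axis) for FTH1 and FTL (diamonds) and their 14 tested copies (open circles). The FTL points cluster between 2.25 and 2.32, and FTH1 lies within the range of its copies at far higher counts.

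TFRC (ENSG00000072274, chromosome 3) encodes the transferrin receptor, the main door for iron in dividing cells. It gave 14837, 15512 and 13521 normalized counts in DMSO and 10652, 11909.6 and 11249.5 in PhenDC3. Every treated library was below every control, and DMSO replicate 3 was the lowest control. TFRC fell to 0.771 of its DMSO level (limma, log2 change -0.37, SE 0.06, 95% interval -0.51 to -0.24, adjusted p = 4.00e-05). TFRC thus fell while both ferritin genes rose. The log2 ratio of FTH1 to TFRC was -3.13, -3.26 and -2.60 in DMSO and 0.39, -0.04 and 0.18 in PhenDC3. That is a 9.02-fold shift, and a ratio within a library does not depend on how libraries were scaled. The ratio of FTL to TFRC shifted 6.17-fold.

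SLC11A2 (ENSG00000110911, chromosome 12) encodes DMT1, which moves iron across the endosomal membrane. It was at 546, 546 and 525 normalized counts in DMSO and 570.4, 555 and 564 in PhenDC3. The groups did not overlap, as in 64.1% of all tested genes in either direction, but the distance was small and did not pass (limma, log2 change 0.06, SE 0.07, adjusted p = 0.472). The 95% interval ran from 0.940 to 1.16 of the DMSO level, so a change of the size of TFRC's fall lies outside it. Scaled to total reads, which lowers the median of all genes to -0.18, the log2 change was -0.10 (adjusted p = 0.238), still above that median.

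**Figure D3:**
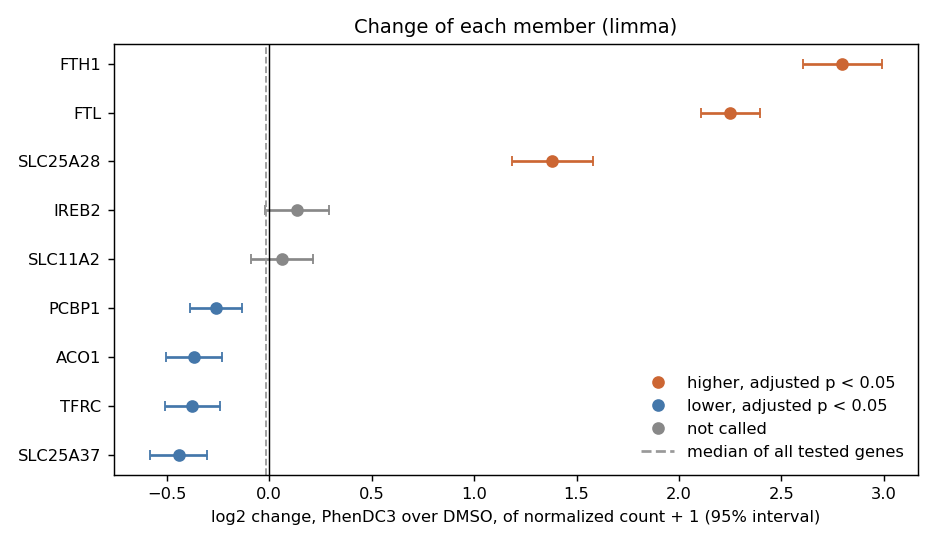
Log2 change of each member, PhenDC3 over DMSO, with 95% interval (limma). FTH1, FTL and SLC25A28 lie at 1.38 or more, the 4 members that fell lie between -0.44 and -0.26, and the intervals of IREB2 and SLC11A2 include 0.

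The mitochondrial iron importers, called mitoferrins, went in opposite directions. SLC25A28 (ENSG00000155287, chromosome 10), mitoferrin 2, is the widely expressed form. It was at 146, 152 and 158 normalized counts in DMSO and 424, 396 and 374 in PhenDC3, a 2.62-fold rise (limma, log2 change 1.38, SE 0.09, adjusted p = 1.38e-10). SLC25A37 (ENSG00000147454, chromosome 8), mitoferrin 1, is best known from red cell precursors. It was at 1727, 1681 and 1519.8 normalized counts in DMSO and 1207, 1199.9 and 1218 in PhenDC3, or 0.736 of its DMSO level (limma, log2 change -0.44, SE 0.07, adjusted p = 9.65e-06). No libraries overlapped for either gene, and the treated SLC25A37 values lay close together. The log2 ratio of SLC25A28 to SLC25A37 moved from -3.57, -3.46 and -3.27 to -1.51, -1.60 and -1.70, a 3.55-fold shift.

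The IRE-binding proteins also differed from one another. ACO1 (ENSG00000122729, chromosome 9) encodes IRP1, which is a cytosolic aconitase while it holds an iron-sulfur cluster and binds IREs without it. It was at 1518, 1468 and 1545 normalized counts in DMSO and 1159.8, 1121 and 1237 in PhenDC3. The groups did not overlap and ACO1 fell to 0.776 (limma, log2 change -0.37, SE 0.07, adjusted p = 7.03e-05). IREB2 (ENSG00000136381, chromosome 15) encodes IRP2, which is controlled mainly by degradation of the protein. It was at 1054, 1096 and 925 normalized counts in DMSO and 1104, 1194 and 1079.8 in PhenDC3, so that PhenDC3 replicate 3 lay below DMSO replicate 2. The change did not pass (limma, log2 change 0.14, SE 0.07, adjusted p = 0.120), with a 95% interval of 0.987 to 1.23 times the DMSO level. Scaled to total reads the log2 change was -0.03 (adjusted p = 0.768), against the lowered median of -0.18 for all genes. The log2 ratio of IREB2 to ACO1 was -0.53, -0.42 and -0.74 in DMSO and -0.07, 0.09 and -0.20 in PhenDC3. Relative to ACO1, IREB2 was therefore 1.42-fold more abundant in treated libraries, with no overlap.

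PCBP1 (ENSG00000169564, chromosome 2) encodes an RNA-binding protein that also hands iron to ferritin. It was at 2904, 2863 and 3021 normalized counts in DMSO and 2591, 2329.8 and 2429.9 in PhenDC3. All treated libraries were lower, and the fall to 0.836 passed (limma, log2 change -0.26, SE 0.06, adjusted p = 0.0012). It was the smallest change called among the members. PCBP1 shares 914 of 1750 exonic bases with PCBP1-AS1 on the opposite strand, which was at 156 ± 8.25 and 130 ± 11.5 normalized counts (0.834 of DMSO; limma, adjusted p = 0.0551). The part of that overlap was not tested.

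**Figure D4:**
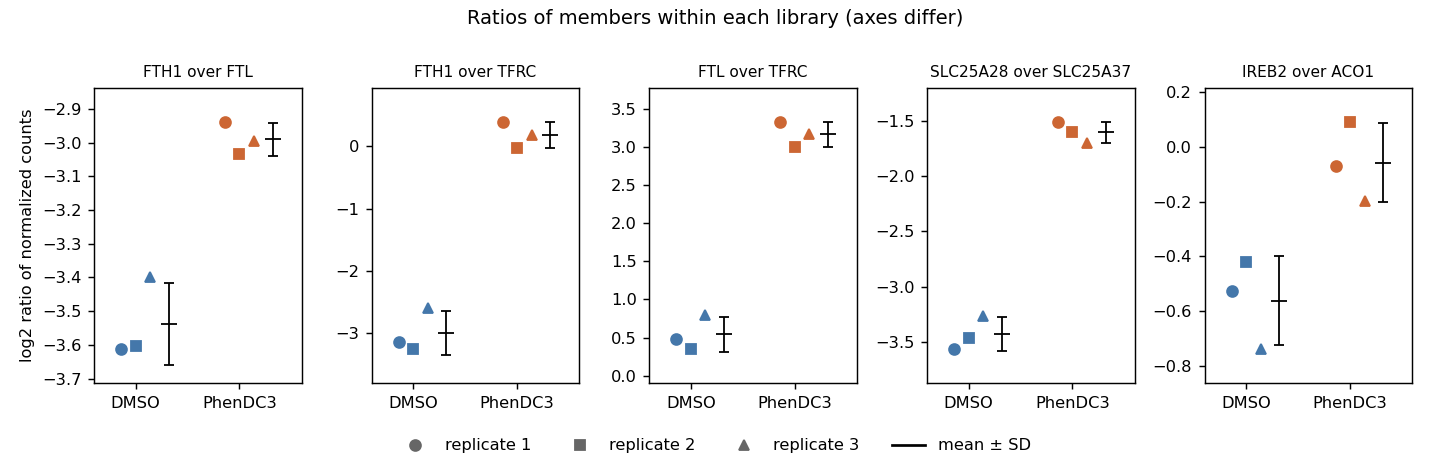
Log2 ratio of normalized counts between pairs of members within each library, with mean ± SD (n = 3 a group) and an axis of its own in each panel. In all 5 pairs the PhenDC3 libraries lie above the DMSO libraries, by 0.50 for IREB2 over ACO1 up to 3.17 for FTH1 over TFRC. The pairs were chosen with results known, and each sets the gene with the higher log2 change on top. The shared direction therefore carries no weight. Among single tested genes the groups did not overlap for 64.1%. DMSO replicate 3 is the control nearest to PhenDC3 in every pair except IREB2 over ACO1.

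Levels of different genes were compared as normalized counts per kb of annotated exon (GENCODE 29, all transcripts of a gene merged). In DMSO the order was FTL at 24284 ± 2249 per kb, TFRC at 1854 ± 128, PCBP1 at 1674 ± 46.8, FTH1 at 911 ± 165, SLC25A37 at 202 ± 13.4 and ACO1 at 199.9 ± 5.13. IREB2 at 94.9 ± 8.28, SLC25A28 at 86.6 ± 3.53 and SLC11A2 at 53.1 ± 1.16 followed. SLC25A37 and ACO1 did not differ beyond their spread, nor did IREB2 and SLC25A28. In PhenDC3 FTL was at 115378 ± 6722 per kb, and FTH1, at 6290.3 ± 577, had passed TFRC (1429 ± 79.7) and PCBP1 (1400.1 ± 75.2), which did not differ beyond their spread. SLC25A28, at 227 ± 14.2, had passed ACO1 (155 ± 7.84) and SLC25A37 (148 ± 1.09) on this scale. IREB2 was at 104 ± 5.56 and SLC11A2 at 55.5 ± 0.750. Genes with long merged untranslated regions are set low on this scale. SLC25A28 has 1755 merged exonic bases, against 7555 for ACO1 and 8147 for SLC25A37. In normalized counts not divided by length, SLC25A28 stayed below both in PhenDC3 (398, against 1173 and 1208). FTH1 was taken here without its copies, which held 20.7% of its summed signal in DMSO. The exons of FTH1 and PCBP1 also overlap genes on the opposite strand. The order of FTH1, TFRC and PCBP1 in DMSO, and so their crossing, may depend on these choices, which was not tested. The crossing of SLC25A28 with ACO1 and SLC25A37 was seen only after division by length.

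Since PhenDC3 binds G quadruplexes, RefSeq promoter windows (GRCh38.p14, 250 bases before to 50 after a start) were searched on both strands for 4 G runs, each of 3 bases or longer, separated by 1 to 7 bases. Such runs stood in 25.0% of 35116 windows and in 3 of the 13 windows held for 8 of the 10 listed genes. FTH1 and SLC25A37 were the genes without a window, and their promoters were not searched here. The 3 stretches are shown because they belong to members that rose, fell and were not called. They are written 5′ to 3′ on the gene's plus strand with runs of C in capitals, so the G runs are on the other strand. They are at chr19:48965076-48965104 (FTL), chr9:32384556-32384582 (ACO1) and chr15:78438262-78438288 (IREB2, 1 of its 2 windows).
FTL: CCCCagggCCCCaaCCCCCCCaagCCCCC
ACO1: CCCgtccgtCCCgCCCCtgctccgCCC
IREB2: CCCCgtcttCCCtgCCCggcctCCCCC
The antioxidant response element core TGACNNNGC was in 13.3% of all windows, on either strand, and in 2 of the 13 windows searched, of PCBP1 and NCOA4. These are letter matches in short windows and not binding sites.

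Iron export, ferric reduction, other uptake and systemic control were represented by a list of 18 genes, of which 13 had a row and 9 were tested. Of these 9, 3 were higher and 3 lower, against 29.2% and 30.4% of all genes. The export genes SLC40A1, HEPH, HEPHL1 and CP were too low to be tested, so these calls do not describe export. One of the 3 higher, TMPRSS6, named here after its values were seen, averaged 3.45 normalized counts in DMSO and 11.9 in PhenDC3. It passed the filter on low values only through the treated libraries. With a mean of 10 or more required, 2 of 8 were higher, against 4443 of 14656 genes. CYBRD1, a ferric reductase, rose 1.76-fold, from 469.8 ± 24.9 to 825 ± 15.5 normalized counts (limma, adjusted p = 1.00e-08). SLC39A14, a transporter that takes up zinc and iron not bound to transferrin, rose 1.53-fold, from 2859 ± 57.3 to 4375 ± 34.7 (adjusted p = 1.25e-08). Its relative SLC39A8 went the other way, from 382 ± 7.82 to 216 ± 36.4, or 0.567 of DMSO (adjusted p = 1.11e-06), and so did BMP6, a ligand that induces hepcidin in liver, to 0.638 (adjusted p = 0.0011). SLC40A1, ferroportin, the iron exporter, had 3 reads over the DMSO libraries and 5 over the PhenDC3 libraries and was not tested.

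Of 12 iron chaperone and IRP turnover genes 8 were tested, 1 higher and 2 lower, against 29.2% and 30.4% of all genes. FBXL5, the ubiquitin ligase subunit that marks IRP2 for degradation, fell from 684 ± 30.6 to 488 ± 11.5 normalized counts, 0.714 of DMSO (limma, adjusted p = 1.17e-05). PCBP2, a relative of PCBP1 that also binds iron, fell to 0.827 (adjusted p = 6.28e-04). GLRX3, a glutaredoxin that carries iron-sulfur clusters, rose 1.34-fold (adjusted p = 2.73e-05). With the replicate block 5 of the 8 were called, 4 of them lower, against 10155 called and 5194 lower of all 16482 genes. Scaled to total reads 7 were called, 6 of them lower, against 10187 called and 6608 lower of all genes. With mitochondrial genes left out of that total, 3 were called, 2 of them lower.

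All 26 genes of iron-sulfur cluster assembly were tested, with 4 higher and 9 lower, against 29.2% and 30.4% of all genes, and a median log2 change of -0.10. Scaled to total reads the split was 2 higher and 15 lower, against 3579 higher and 6608 lower of all 16482 genes. With mitochondrial genes left out of that total, it was 4 higher and 9 lower. BOLA3 fell to 0.505, FDXR, which passes electrons to ferredoxin, to 0.581, and MMS19, of the cytosolic targeting complex, to 0.760 (limma, adjusted p = 5.10e-07, 2.01e-05 and 6.38e-05). HSCB, a co-chaperone of cluster transfer, rose 1.76-fold, CIAO3 1.47-fold, ISCA1 1.27-fold and CIAPIN1 1.25-fold (adjusted p = 6.85e-05, 4.94e-04, 0.00348 and 0.00159). Scaled to total reads ISCA1 and CIAPIN1 no longer passed (adjusted p = 0.104 and 0.0917).

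Of 7 other genes whose mRNAs are described as holding an IRE 5 were tested, 1 higher and 2 lower, against 29.2% and 30.4% of all genes, with a median log2 change of -0.05. EPAS1, the hypoxia factor HIF2 alpha, rose 1.43-fold, from 1196 ± 65.1 to 1709.7 ± 7.42 normalized counts (limma, adjusted p = 8.82e-07). PFN2, a profilin, fell to 0.644 (adjusted p = 1.15e-08).

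**Figure D5:**
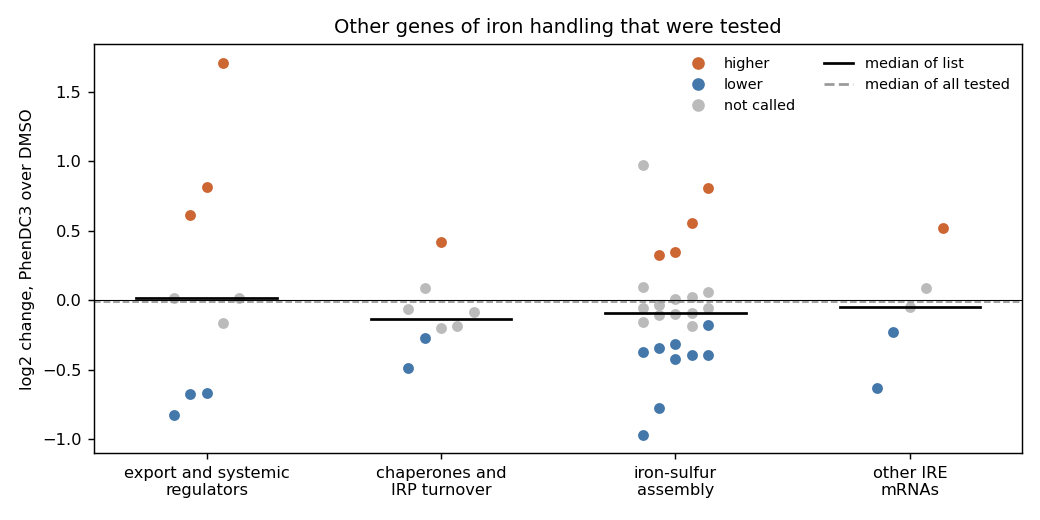
Log2 change, PhenDC3 over DMSO, of the tested genes of 4 lists of iron handling (9, 8, 26 and 5 genes), with called genes in colour, a black bar at each list's median and a dashed line at the median of all tested genes (-0.02). Each list holds genes on both sides of 0, and the list medians lie between -0.14 and 0.02. The list labelled export and systemic regulators also holds reduction and uptake genes, and none of its export genes was tested.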

How the data were processed

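Per the submitters' processing notes, the tools were STAR 2.7, featureCounts, DESeq2 1.18.1, TopHat2 2.0.11, Cufflinks 2.2.1, Cuffdiff and CASAVA, with the build hg19 and no roles stated. The annotation and strand setting were not given in the sources used here. Each deposited signal value is a gene's read count over a size factor that the authors set per library: 100% of values were whole multiples of the smallest (relative tolerance 1e-06), so reads were recovered. The authors deposited a log2 fold change and an adjusted p-value, used here as an alternative. Limma 3.58.1 in R 4.3.3 tested log2(value + 1) with a variance trend for genes with a mean of 5 or more. edgeR 4.0.16 and DESeq2 1.42.0 were run on recovered reads as alternatives, beside other pseudocounts, filters and scalings. Members and lists were chosen with earlier results of these data known. Named list genes are the up to 4 called with the smallest adjusted p, and those called against their list's majority. One gene that this rule takes is not reported here. The list genes' alternatives were added after seeing the data. Replicate libraries differed by more than sampling noise (chi-square per degree of freedom 1.40 to 6.99), so none was merged. The pairs with DMSO replicate 3 gave 6.47 and 6.99, and the remaining pairs 1.40 to 2.50. Limma was also run on simulated data in which few genes changed and the spread was assumed. That setting differs from these data, so the run does not give an error rate here.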

Additional observations from a re-analysis of the deposited data

How the results depend on the processing

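Of the 9 members, 7 were called under each alternative run, including edgeR, DESeq2, the authors' deposited table, a threshold of 0.01 and each library left out. Of 153 values of members under the alternatives, 151 kept their call and sign, the exceptions being SLC11A2 (-0.10) and IREB2 (-0.028) scaled to total reads, neither of them called and both above the median of all genes under that scaling (-0.18). Without DMSO replicate 3 the log2 change of FTH1 was 2.94 and of TFRC -0.43, the largest of each when 1 library was left out. The count of chaperone and IRP turnover genes called was 3, against 5 with the replicate block and 7 scaled to total reads. With mitochondrial genes left out of the total, the count was 3 and the median log2 change of all genes 0.002. The cause of these differences was not tested. The replicate numbers gave little sign of pairing, since residuals of same-numbered libraries correlated at 0.008, 0.071 and 0.027, and the replicate block changed no other count by over 1.5 times (10155 of all genes called, against 9818). Of 289 values of the named list genes 287 kept their call. The planned ratio of FTH1 to NCOA4 and the identities between proteins were not run. Genes under the filter on low values, such as SLC40A1 with 3 and 5 reads a group, were left out by that filter, and no change is read from so few reads.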

Other observations

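FTH1 and TFRC ranked in opposite orders among the libraries of each group. In DMSO, FTH1 was highest in replicate 3 (2233 normalized counts), then in replicate 1 (1693) and replicate 2 (1622), and TFRC was lowest in replicate 3 (13521), then in replicate 1 (14837) and replicate 2 (15512). In PhenDC3, FTH1 was highest in replicate 1 (13954), then in replicate 3 (12740) and replicate 2 (11613), with TFRC at 10652, 11249.5 and 11909.6 in the same order. FTL followed the order of FTH1 in both groups. Reads per library were also highest in DMSO replicate 3 (14292987) and PhenDC3 replicate 1 (9386691), and the part of depth in these orders was not tested. With 3 libraries a group and an order noticed in these data, this is a description only.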
